A study of Saccharomyces cerevisiae with 9 samples.

Results

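Nucleotides 601 to 1800 of the 18S ribosomal RNA (rRNA), its central and 3′ part, were examined in native elongating transcript sequencing (NET-seq) of RNA polymerase I (Pol I) in Saccharomyces cerevisiae, budding yeast. They were set by position, with earlier results of these data known. They are 1200 of the 1800 nucleotides of 18S, which begins 700 nt into the gene for the 35S precursor. In the gene copy RDN37-2 on the minus strand of chromosome XII this is chrXII:465070-466269 in genome build R64, inside RDN18-2, and coordinates fall as the gene is read. Reads from the near-identical repeats of this gene cannot be told apart. The 9 libraries were 3 from rpa49△ cells, 3 from rpa34△ cells and 3 from WT cells, the control, all untreated and grown at 30 °C. Further alleles, strain background and growth medium are not given in the labels. Nor do the labels tell whether the 3 libraries of a strain came from different cultures, and the p-values cover the spread between these libraries alone.

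Pol I makes a single long precursor that is cut into 18S, 5.8S and 25S rRNA, while the spacers between them are removed. Rpa49 and Rpa34 sit together on the outside of the enzyme as a dimer related to initiation and elongation factors of RNA polymerase II, and cells live without either protein. The stretch described here becomes part of the small ribosomal subunit, including the bases near the 3′ end of 18S that form the decoding site. The mature 3′ end is made late, when the endonuclease Nob1 removes the last piece of spacer. In NET-seq each read reports the last nucleotide of an RNA that came down with the polymerase, and its count at a position is called occupancy here. Ends of growing RNAs and ends of rRNA carried along with the enzyme cannot be told apart in these files.

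The following stretches show the sequence around some of the positions described below and are given as RNA from the deposited tables, 5′ to 3′, named by nucleotide of 18S. A capital marks the nucleotide at which the RNA 3′ ends described below lay.
1185 to 1210, chrXII:465660-465685, capitals at 1199 and 1200: uuugacucaacacgGGgaaacucacc
710, chrXII:466154-466174: ccuucuggcuaaccUugaguc
763, chrXII:466101-466121: uugaaaaaauuagaGuguuca
1069, chrXII:465795-465815: uuuuuuaaugacccAcucggc
1109, chrXII:465755-465775: ucuuuggguucuggGgggagu
958, chrXII:465906-465926: auuugccaaggacgUuuucau
814, chrXII:466050-466070: uggaauaauagaauAggacgu
927, chrXII:465937-465957: ggauuuauugaagaCuaacua
833, chrXII:466031-466051: guuugguucuauuuUguuggu
613, chrXII:466251-466271: auauuaaaguuguuGcaguua
1761 to 1800, the last 40 nt of 18S, chrXII:465070-465109, capitals at 1791, 1795, 1796 and 1798: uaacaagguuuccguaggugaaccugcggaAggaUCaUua

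Occupancy was expressed per 1000000 reads of a library across the 35S gene (RPM). Over the gene, libraries held 1242139 to 1568118 reads in rpa49△, 2654736 to 3575357 in rpa34△ and 4448068 to 5353045 in WT. Thus 1 read was worth 0.187 to 0.805 RPM. Over nucleotides 601 to 1800 they held 283716 to 1086935 reads. Depth did not overlap between strains, and its part in the spread between libraries was not tested. The median position of the stretch had 184 to 686.5 reads, and the lowest position above 0 had 4 to 37. Nucleotides 1799 and 1800 were listed at 0 in every library. No source used here gives the reason. The share of all reads that lay in mature rRNA sequence differed by strain, with 97.2 to 97.6% in rpa49△, 93.6 to 94.5% in rpa34△ and 89.3 to 91.1% in WT, so shares, bins and counts of positions are also given relative to mature rRNA reads (18S, 5.8S and 25S together). Values of single positions are on the whole-gene scale unless stated. On mature rRNA reads the calls at the named ones held except those at 752 in rpa49△ and at 814 and 1684 in rpa34△ against WT.

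The stretch had the same broad landscape in all strains, with the highest occupancy at its 5′ end. Summed in 24 bins of 50 nt, the bin from 601 to 650 was the highest in each strain, at a mean of 19378 RPM in rpa49△, 18451 RPM in rpa34△ and 18112 RPM in WT (n = 3 each). The lowest was 1351 to 1400 in rpa49△ (3499.6 RPM) and rpa34△ (3820.1 RPM), and 1701 to 1750 in WT (3255 RPM). The highest bin therefore held 5.54 times the lowest in rpa49△, 4.83 times in rpa34△ and 5.56 times in WT. Single positions varied more: the central 80% ran between 44.1 and 363 RPM in rpa49△, 48.8 and 343 RPM in rpa34△, and 45.8 and 360.2 RPM in WT, over the 1198 positions above 0. Libraries of a strain differed little at a position: the median coefficient of variation was 11.5% in rpa49△, 7.19% in rpa34△ and between these in WT.

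**Figure D1:**
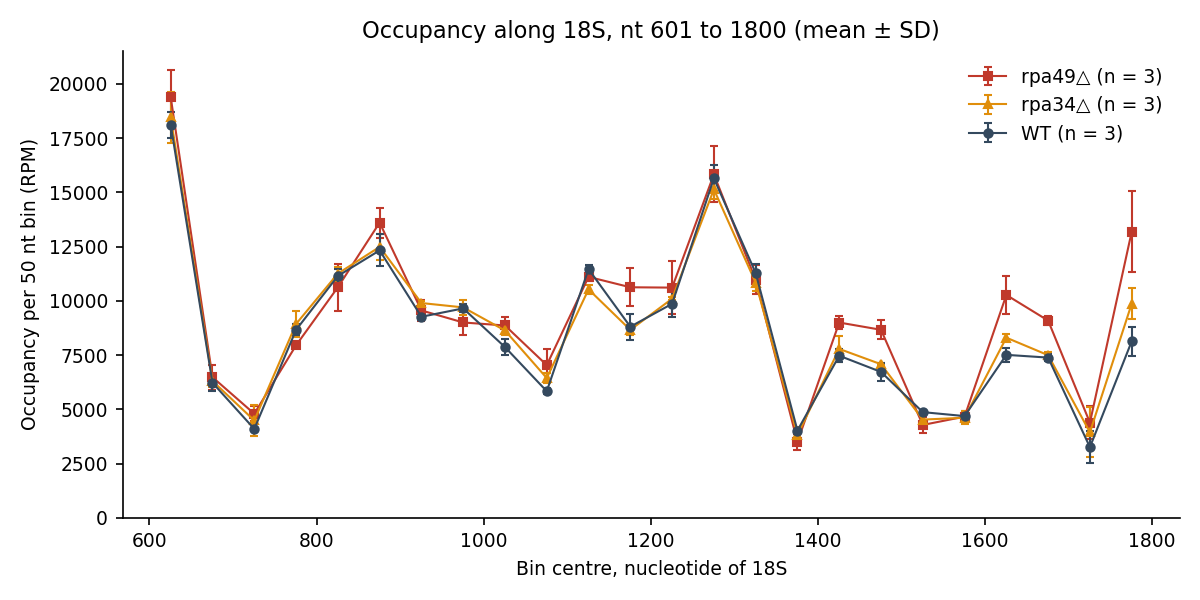
Occupancy of Pol I along 18S from 601 to 1800, in RPM per bin of 50 nt against the nucleotide of 18S at the bin's centre; points are means and bars SDs of 3 libraries per strain. All strains are highest in the first bin, and rpa49△ lies above WT in the last 4 bins, with 13183 RPM against 8134 RPM in the last bin.

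Across the 1198 positions, log2 profiles of libraries of the same strain had Pearson correlations of 0.960 to 0.978 in rpa49△, 0.970 to 0.990 in rpa34△ and 0.977 to 0.988 in WT. Between strains they were 0.838 to 0.885 for rpa49△ with WT, 0.914 to 0.959 for rpa34△ with WT, and 0.914 to 0.946 for rpa49△ with rpa34△. These are correlations across positions of one gene, which share sequence and library and are not independent. Every rpa49△ library was thus less like every WT library than any rpa34△ library was.

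The stretch held a slightly larger share of the gene's occupancy in both deletions. It held 21.9%, 22.2% and 22.8% in the rpa49△ libraries, 20.7%, 20.8% and 21.3% in the rpa34△ libraries, and 20.6%, 20.4% and 20.3% in the WT libraries. The exact 95% binomial interval of a library reached at most 22.9% in rpa49△ and 20.6% in WT, and covers counting error only. No strain's libraries overlapped another's. The difference was 1.92 percentage points for rpa49△ against WT, 0.497 points for rpa34△ against WT and 1.42 points for rpa49△ against rpa34△. Each gave p = 0.1 in a two-sided exact permutation test, the smallest p that 3 libraries against 3 allow. After adjustment over the 10 measures of each comparison p was 0.125, 0.2 and 0.143, so none passed 0.05.

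Relative to mature rRNA reads most of the difference of rpa49△ from WT was gone, and the difference between the deletions was smaller. The shares were then 22.6%, 22.8% and 23.4% in rpa49△, 21.9%, 22.2% and 22.5% in rpa34△, and 22.6%, 22.4% and 22.7% in WT. The difference was 0.352 points for rpa49△ against WT (exact permutation p = 0.3) and -0.373 points for rpa34△ against WT (exact permutation p = 0.2), a change of sign. Only rpa49△ and rpa34△ did not overlap, at 0.724 points (exact permutation p = 0.1, 0.143 adjusted). The strains with a larger share of the gene on the first scale also had a larger mature rRNA share, although within rpa34△ and within WT the libraries were not in the same order in both. The part of the mature rRNA share in the result was not tested.

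The balance within 18S does not depend on that scaling. Reads in nucleotides 601 to 1800 per read in nucleotides 1 to 600, the 5′ part of 18S, were 2.05, 2.00 and 2.04 in rpa49△, 1.83, 1.85 and 1.92 in rpa34△, and 1.84, 1.76 and 1.76 in WT. The rpa49△ ratio of 2.03 ± 0.0293 was above both 1.87 ± 0.0475 in rpa34△ and 1.79 ± 0.0433 in WT (SD, n = 3 each), with no overlap (exact permutation p = 0.1 for both, 0.143 and 0.125 adjusted). The rpa34△ and WT ratios overlapped, with p = 0.2 in the exact permutation test.

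Per nucleotide, the stretch had 186 ± 3.8 RPM in rpa49△, 174 ± 2.77 RPM in rpa34△ and 170.2 ± 1.10 RPM in WT. In nucleotides 1 to 600 the density was 183 ± 4.51 RPM in rpa49△, 187 ± 1.84 RPM in rpa34△ and 191 ± 3.52 RPM in WT. The 5′ part of 25S, its first stretch of equal length when cut in 3, had 160.1 ± 3.16 RPM in rpa49△, 160.4 ± 2.09 RPM in rpa34△ and 160.1 ± 3.69 RPM in WT (SD, n = 3). The WT mean of nucleotides 601 to 1800 lay between those of nucleotides 1 to 600 and of the 5′ part of 25S. In rpa49△ the mean of nucleotides 601 to 1800 was above both, with libraries that overlapped those of nucleotides 1 to 600. A density above WT was not particular to this stretch. The middle part of 25S had 184 RPM in rpa49△, 171 RPM in rpa34△ and 163 RPM in WT. Its 3′ part had 192 RPM in rpa49△, 189 RPM in rpa34△ and 170 RPM in WT.

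**Figure D2:**
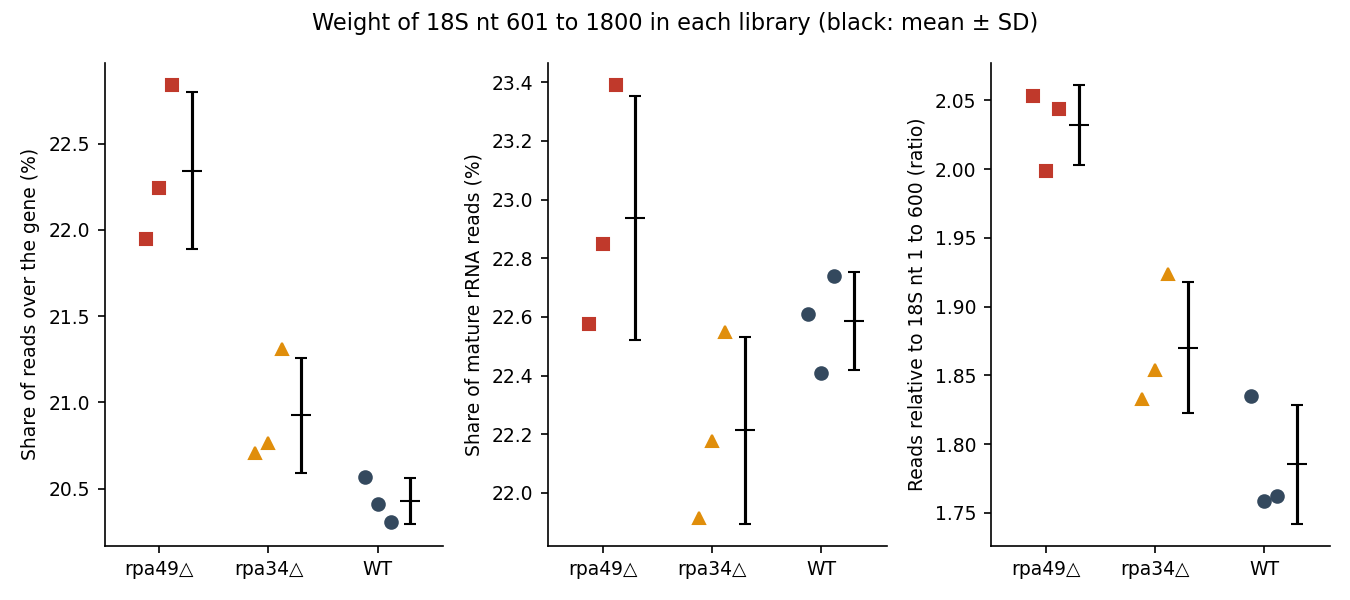
Weight of 18S 601 to 1800 in each library: its share of reads over the whole gene (%), its share of mature rRNA reads (%), and its reads relative to 18S 1 to 600 (ratio). Coloured points are libraries and black bars the mean ± SD of 3; the axes do not start at 0. The rpa49△ libraries lie highest for the first and the last measure, at 21.9 to 22.8% and 2.00 to 2.05, while on mature rRNA reads rpa49△ and WT overlap.

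Within the stretch, occupancy in rpa49△ lay nearer the 3′ end on average than in WT. Its occupancy-weighted mean position was 1168 ± 13.7 in rpa49△, 1147 ± 7.59 in rpa34△ and 1142 ± 3.94 in WT (SD, n = 3). The difference of rpa49△ from WT was 26.0 nt and did not pass after adjustment (exact permutation p = 0.1, 0.125 adjusted). That of rpa34△ from WT was 4.78 nt (exact permutation p = 0.6, 0.667 adjusted). Between the deletions it was 21.2 nt, with libraries that overlapped (exact permutation p = 0.2). Without the last 50 nt of 18S the rpa49△ difference was 13.9 nt and that of rpa34△ was -0.204 nt. The last 50 nt alone held 5.89% ± 0.752 of the stretch in rpa49△, 4.71% ± 0.326 in rpa34△ and 3.98% ± 0.302 in WT, with no overlap between any strains.

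Of the 24 bins, 10 rose and 0 fell in rpa49△ against WT (limma, adjusted p under 0.05 over all bins of the gene, log2 of RPM plus 10). Over the whole gene 62.3% of bins passed, 30.4% higher and 31.9% lower. Of the remaining bins of the stretch, 3 had an unadjusted p under 0.05. In the 12 bins of the 5′ part of 18S, 3 rose and 8 fell. Of those that rose, 4 lay in the first 12 bins of the stretch and 6 in the last 12, starting at 1401, 1451, 1601, 1651, 1701 and 1751.

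The last bin, 1751 to 1800, changed most. It held 11026, 14078 and 14445 RPM in rpa49△ and 8878, 7944 and 7579 RPM in WT, 0.69 higher on the log2 scale, with SE 0.09 and limma adjusted p = 2.74e-05. All rpa49△ libraries lay above all WT libraries. The bin at 1601 held 9450.1, 10161 and 11195 RPM in rpa49△ and 7196, 7481 and 7853 RPM in WT, a log2 change of 0.45 (limma adjusted p = 6.97e-05). The bins at 1451 and 1651 rose by 0.37 and 0.30 on the log2 scale without overlap of libraries. The bin at 1701 passed at 0.44 (SE 0.15, limma adjusted p = 0.0261) but overlapped, with 3606, 4429.5 and 5121 RPM in rpa49△ and 4091, 3012 and 2663 RPM in WT, and the call was lost on mature rRNA reads, with the replicate number as a block, with eBayes without trend, and without rpa49△ replicate 3 or WT replicate 3.

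Relative to mature rRNA reads, rpa49△ against WT gave 5 bins higher and 5 lower, where 36.5% of the 104 bins wholly in mature rRNA passed, 12.5% higher and 24% lower. The bins at 1401, 1451, 1601, 1651 and 1751 were the 5 higher ones, with log2 changes of 0.16, 0.26, 0.34, 0.19 and 0.58. Those at 751, 951, 1101, 1351 and 1501 were lower, by -0.23, -0.21, -0.15, -0.31 and -0.30. All 5 that were higher on this scale were also higher on the whole gene, and all lie after nucleotide 1400.

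In rpa34△ against WT the bins moved less: 2 rose and 1 fell of 24, against 37% of bins over the gene, 15.9% higher and 21% lower. The last bin held 10348, 9049 and 10203 RPM in rpa34△ and 8878, 7944 and 7579 RPM in WT, 0.28 higher on the log2 scale, with SE 0.07 and limma adjusted p = 0.0122. The bin at 1601 rose by 0.14 and the bin at 1101 changed by -0.12, with limma adjusted p = 0.0381 and 0.041. Both of these calls were lost under 9 of the alternatives tried, including each omission of an rpa34△ library. On mature rRNA reads the last bin was higher at 0.22 and the bin at 1101 lower at -0.18, against 17.3% of bins called, 7.69% higher and 9.62% lower.

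Compared directly, rpa49△ was above rpa34△ in 6 of the 24 bins and below in 1, against 38.4% of bins over the gene, 10.1% higher and 28.3% lower. The 6 higher bins started at 1151, 1401, 1451, 1601, 1651 and 1751. The last bin differed by 0.41 (SE 0.10, limma adjusted p = 0.00603) and the bin at 1601 by 0.30 (limma adjusted p = 0.00213). The single lower bin, at 751, held 7894, 7983 and 7969 RPM in rpa49△ and 8862, 8378 and 9556 RPM in rpa34△, a log2 change of -0.17 (limma adjusted p = 0.03). This call was lost under 6 of the alternatives: edgeR, eBayes without trend, and the omission of rpa49△ replicate 2 or 3 or of rpa34△ replicate 1 or 3. On mature rRNA reads 5 were higher and 1 lower, with 22.1% of bins called, 7.69% higher and 14.4% lower.

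The call of the last bin rests on a few positions. With the median position of the bin in place of its sum, the limma adjusted p was 0.0642 for rpa49△ against WT, 0.378 for rpa34△ against WT and 0.0748 for rpa49△ against rpa34△. Just outside the stretch, the bin at 551 rose in both deletions against WT, by 0.27 in rpa49△ and by 0.23 in rpa34△. Its changes of 0.17 in each on mature rRNA reads did not pass (limma adjusted p = 0.134 and 0.133). The first 50 nt of the spacer after 18S held 250.1 to 325 RPM in rpa49△, 1138 to 1361 RPM in rpa34△ and 1508 to 1721 RPM in WT. It fell by 2.52 on the log2 scale in rpa49△ and by 0.42 in rpa34△ against WT (limma adjusted p = 5.27e-09 and 0.0188).

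**Figure D3:**
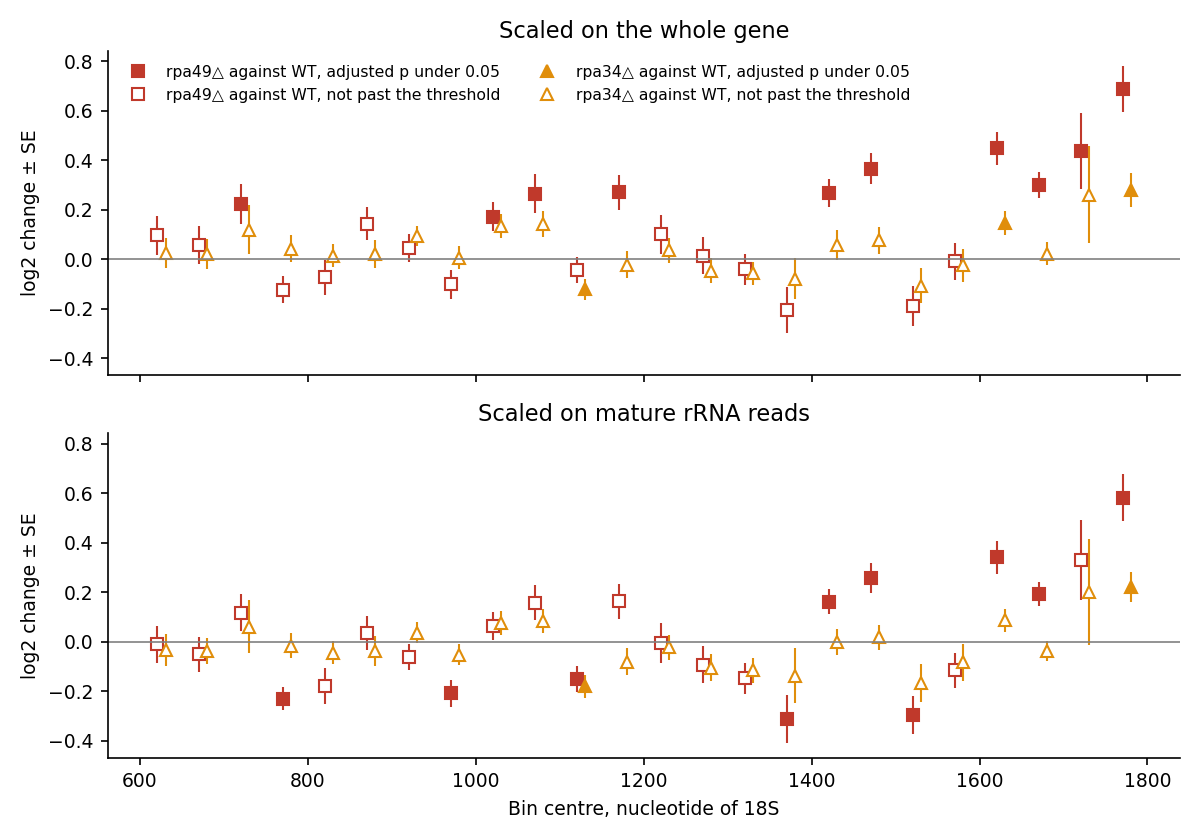
Log2 change ± SE of each 50 nt bin of 18S 601 to 1800 against WT, for rpa49△ and rpa34△, against the nucleotide of 18S at the bin's centre; the upper panel is scaled on the whole gene and the lower on mature rRNA reads, and filled symbols have a limma adjusted p under 0.05. The last bin is the highest in rpa49△ on both scales, at 0.69 and 0.58, and on mature rRNA reads the filled symbols above 0 lie after 1400.

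At single nucleotides, 439 positions rose and 205 fell in rpa49△ against WT, of 1196 tested (limma, adjusted p under 0.05 over every position of the gene whose mean was 10 RPM or more). Over the gene 57.6% of positions passed, 27.1% higher and 30.5% lower. In rpa34△ against WT 249 rose and 172 fell of 1196, with 43.2% over the gene, 19.8% higher and 23.4% lower. Between the deletions, rpa49△ was higher at 194 and lower at 126 of 1193, with 30.4% over the gene, 10.9% higher and 19.5% lower. Positions 1786, 1787, 1799 and 1800 were too low to test in any comparison, and 1191, 1193 and 1196 also in the direct one.

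On mature rRNA reads the split was more even. It was 317 higher and 258 lower in rpa49△ against WT (45.4% of positions called, 21.5% and 23.9%), 174 and 215 in rpa34△ against WT (34.4%, 15.9% and 18.5%), and 123 and 133 in rpa49△ against rpa34△ (19.1%, 7.63% and 11.5%). The median log2 change of the tested positions on the whole-gene scale was 0.14, 0.06 and 0.09 in these comparisons, against 0.10, 0.06 and 0.04 over mature rRNA and 0.01, 0.01 and 0.00 over all positions of the gene. On mature rRNA reads it was 0.04, 0.01 and 0.05 in the stretch, against 0.00, 0.01 and -0.01 over mature rRNA.

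Among changes of at least 2-fold, falls outnumbered rises in the stretch as they did over the gene. Of the called positions, 12 were at least 2-fold higher and 42 at least 2-fold lower in rpa49△ against WT, where the gene had 62 and 945 of 6320 tested and mature rRNA 45 and 192 of 5320. In rpa34△ against WT 0 were at least 2-fold higher and 6 at least 2-fold lower, where the gene had 18 and 309 of 6425 and mature rRNA 5 and 39 of 5321. Between the deletions rpa49△ was higher at 1 and lower at 22, where the gene had 12 and 489 of 6083 and mature rRNA 3 and 76 of 5308. On mature rRNA reads the stretch had 8 higher and 57 lower in rpa49△ against WT, 0 and 7 in rpa34△ against WT, and 1 and 23 in rpa49△ against rpa34△. On that scale all of mature rRNA had 29 and 243 of 5322, 4 and 52 of 5326, and 2 and 89 of 5311, in this order. Both deletions were compared with the same WT libraries, so the values of named positions are set side by side below.

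Position 1199, the second G of a run of G, fell most in every comparison. It held 14.2, 24.2 and 29.8 RPM in rpa49△, 168, 224 and 179 RPM in rpa34△, and 663, 654 and 849 RPM in WT. The rpa49△ values rest on 22, 38 and 37 reads. No libraries of different strains overlapped, and the WT mean of 722 RPM was 31.7 times that of rpa49△ and 3.79 times that of rpa34△. The log2 change was -4.50 (SE 0.16) for rpa49△ against WT, -1.87 (SE 0.12) for rpa34△ against WT and -2.63 (SE 0.17) for rpa49△ against rpa34△, with limma adjusted p = 1.87e-14, 4.2e-08 and 1.78e-08. The G at 1200 averaged 18.6 ± 3.02 RPM in rpa49△, 61.4 ± 7.28 RPM in rpa34△ and 146 ± 18.8 RPM in WT (SD, n = 3 each). A few bases on, the A at 1202 went against its neighbours in rpa34△, where it rose by 0.76 (limma adjusted p = 0.000184), with 229, 274 and 254 RPM in rpa34△ and 157, 116 and 167 RPM in WT. In rpa49△ it held 135, 187 and 196 RPM, a log2 change of 0.22 from WT that did not pass (limma adjusted p = 0.202).

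Nucleotides 710, 763, 1069 and 1109 were among the other positions that fell in both deletions. The U at 710 held 39.4, 30.0 and 41.9 RPM in rpa49△, 104, 116 and 109.9 RPM in rpa34△, and 203, 208 and 252 RPM in WT. The G at 763 held 8.40, 10.2 and 12.9 RPM in rpa49△, 36.2, 31.3 and 33.3 RPM in rpa34△, and 93.3, 101 and 129 RPM in WT. At both positions rpa34△ lay between the other strains without overlap. The A at 1069 held 40.1, 45.3 and 39.4 RPM in rpa49△, 71.2, 80.3 and 62.7 RPM in rpa34△, and 208, 199.7 and 248 RPM in WT. The run of G at 1109 held 181, 167 and 188 RPM in rpa49△, 197, 233 and 201 RPM in rpa34△, and 485, 407 and 446 RPM in WT. The log2 changes for rpa49△ against WT were -2.30, -2.52, -2.14 and -1.27 in this order, and those for rpa34△ against WT were -0.94, -1.43, -1.49 and -1.05 (all limma adjusted p at most 3.87e-06). Only at 1109 did the deletions fail to separate in the direct test, at -0.22 (limma adjusted p = 0.115).

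Other positions were lower in rpa49△ than in both other strains. The U at 958 held 135, 148 and 149 RPM in rpa49△, 603, 666 and 573 RPM in rpa34△, and 384, 351 and 407 RPM in WT. It fell by 1.34 on the log2 scale in rpa49△ against WT, rose by 0.68 in rpa34△ against WT, and differed by -2.02 (SE 0.09) between the deletions (limma adjusted p = 2.28e-09, 4.46e-05 and 4.8e-10). The deletions thus moved in opposite directions at this nucleotide, also on mature rRNA reads, at -1.45 and 0.62. The A at 814 held 122, 96.3 and 87.8 RPM in rpa49△, 328, 388 and 326 RPM in rpa34△, and 292, 278 and 309.7 RPM in WT. The C at 927 held 91.1, 121 and 118 RPM in rpa49△, 299, 354 and 339 RPM in rpa34△, and 389, 376 and 419.9 RPM in WT. In rpa49△ against rpa34△ these changed by -1.68 and -1.51 (limma adjusted p = 4.95e-08 and 9.48e-08). In rpa34△ against WT the changes were small, 0.24 at 814 and -0.25 at 927, and their calls were lost under 8 and 3 of the alternatives.

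Rises were smaller. The G at 613 held 1116, 900.4 and 1038 RPM in rpa49△, 626, 719 and 602 RPM in rpa34△, and 347, 475 and 424 RPM in WT. It rose by 1.28 (SE 0.13) in rpa49△ and by 0.64 (SE 0.11) in rpa34△ against WT (limma adjusted p = 8.45e-08 and 0.000472), and the strains did not overlap. The U at 833 held 469, 387 and 321 RPM in rpa49△, 217, 218 and 202 RPM in rpa34△, and 262, 251 and 239 RPM in WT. It rose by 0.61 in rpa49△ against WT and by 0.84 against rpa34△ (limma adjusted p = 0.000351 and 5.96e-05). In rpa34△ against WT it changed by -0.23 (limma adjusted p = 0.0288), a call lost under 5 of the alternatives.

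At 1184 and 738 both deletions lay above WT. Position 1184 held 345, 412 and 416 RPM in rpa49△, 353, 319 and 385 RPM in rpa34△, and 222, 196 and 200.1 RPM in WT, with log2 changes of 0.89 and 0.74. Position 738 averaged 77.6 ± 10.4 RPM in rpa49△, 63.2 ± 22.0 RPM in rpa34△ and 31.4 ± 3.01 RPM in WT (SD, n = 3 each), with log2 changes of 1.08 and 0.78. The direct test separated the deletions at neither, with limma adjusted p = 0.329 and 0.242. Positions 1647 and 1684 rose in rpa49△, by 0.97 at each, and at 1647 rpa34△ did not pass against WT (0.15, limma adjusted p = 0.182). Position 1721 varied within strains, with 87.3 to 188 RPM in rpa49△, 81.9 to 173 RPM in rpa34△ and at most 78.0 RPM in WT. It rose in both deletions, by 1.27 in rpa49△ and by 0.98 in rpa34△ against WT (limma adjusted p = 8.85e-05 and 0.00404), and both calls held under every alternative tried.

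Some high positions did not pass the test. Of the 8 with the highest mean over strains, the A at 1238 held 639.9, 785 and 948 RPM in rpa49△, 800.5, 783 and 774 RPM in rpa34△, and 823, 757 and 835 RPM in WT. Its log2 change was -0.04 (SE 0.13) in rpa49△ and -0.03 (SE 0.09) in rpa34△ against WT. The A at 621, 8 nt after 613, changed by 0.13 and 0.12, with limma adjusted p = 0.395 and 0.383. The C at 931, 4 nt after 927, averaged 1222 RPM in rpa49△, 1143 RPM in rpa34△ and 978 RPM in WT and changed by 0.31 and 0.22, which did not pass either. The A at 752 passed in rpa49△ against WT, at 0.35 (limma adjusted p = 0.0355), and lost the call under 5 of the alternatives.

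**Figure D4:**
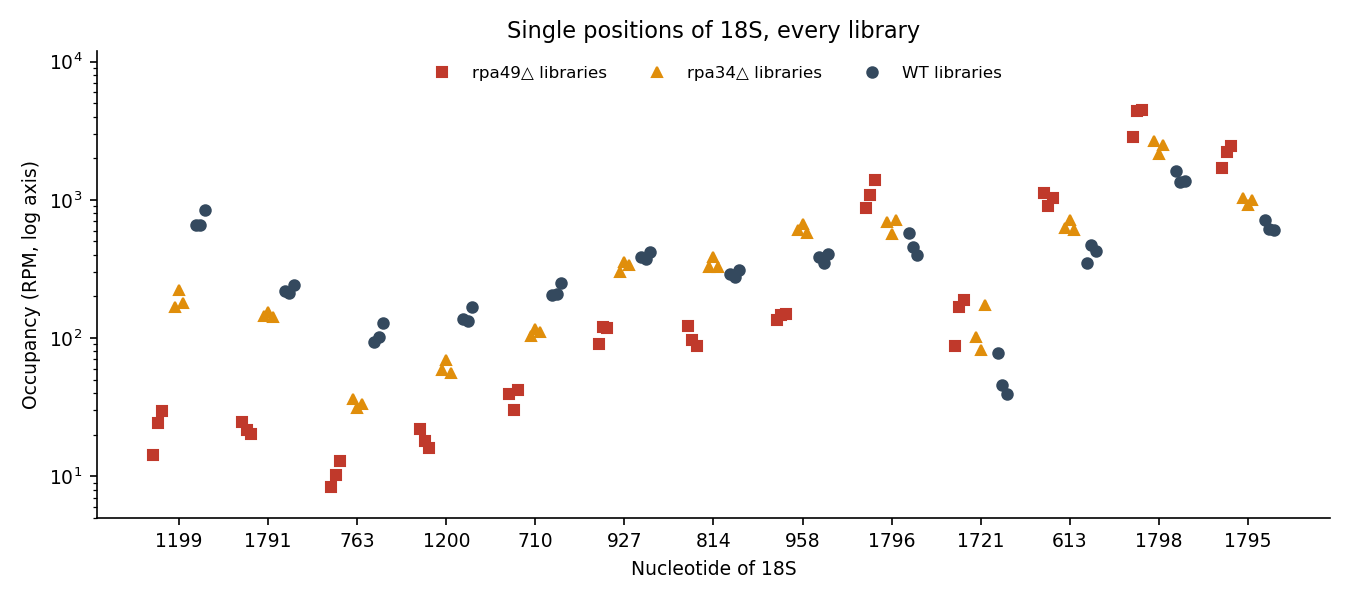
Occupancy (RPM, log axis) of every library at the 5 nucleotides that rose most and the 5 that fell most in rpa49△ against WT and the 5 that fell most against rpa34△, ordered by the log2 change against WT, with rpa49△, rpa34△ and WT from left to right at each position. The strains separate at 1199, where rpa49△ lies between 14.2 and 29.8 RPM and WT between 654 and 849 RPM; at 958 rpa34△ is highest and rpa49△ lowest, and at 613, 1795 and 1798 rpa49△ is highest.

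The last nucleotides of 18S showed rises and falls side by side. Position 1798, the last with reads before the end of 18S, held 2856, 4361 and 4486 RPM in rpa49△, 2661, 2165 and 2481 RPM in rpa34△, and 1630, 1353 and 1363 RPM in WT, and had the highest mean of the stretch in each strain. It rose by 1.40 (SE 0.18) in rpa49△ and by 0.75 (SE 0.13) in rpa34△ against WT (limma adjusted p = 2.17e-06 and 0.00047). The deletions did not overlap WT or each other, and the lowest rpa49△ library was near the rpa34△ ones. Compared directly, rpa49△ was higher by 0.65 (SE 0.18, limma adjusted p = 0.012), a call lost without rpa49△ replicate 2 or rpa34△ replicate 2. The U at 1795 held 1712, 2213 and 2435 RPM in rpa49△, 1040.0, 919 and 995 RPM in rpa34△, and 711, 617 and 608 RPM in WT. It rose by 1.69 in rpa49△ and by 0.60 in rpa34△ against WT, and by 1.08 in rpa49△ against rpa34△ (limma adjusted p = 6.8e-09, 0.000236 and 1.77e-05). The C at 1796 averaged 1119 RPM in rpa49△, 659.9 RPM in rpa34△ and 477 RPM in WT. There rpa34△, at 567 to 720 RPM, overlapped WT, at 398 to 577 RPM. The log2 change of rpa34△ against WT was 0.47 (limma adjusted p = 0.00941), a call lost without rpa34△ replicate 1.

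A few bases upstream the change was in the other direction. The A at 1791 held 24.6, 21.7 and 20.1 RPM in rpa49△, 145, 154 and 143 RPM in rpa34△, and 219, 213 and 242 RPM in WT. It fell by 2.87 (SE 0.13) in rpa49△ and by 0.58 (SE 0.08) in rpa34△ against WT (limma adjusted p = 5.21e-13 and 8.21e-05). Nucleotides 1789 and 1790 had log2 changes of -1.94 and -1.84 in rpa49△ and of -0.81 and -0.58 in rpa34△ against WT, and all 4 passed. At 1792, between the falls and the rises, the means were 29.1 RPM in rpa49△, 27.9 RPM in rpa34△ and 30.9 RPM in WT, and no comparison passed.

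Positions 1792 to 1798 together held 6251, 8815 and 9605 RPM in rpa49△, 5330.5, 4480.1 and 5122 RPM in rpa34△, and 3655, 3040.0 and 2965 RPM in WT. That was 56.7 to 66.5% of the last bin in rpa49△, 49.5 to 51.5% in rpa34△ and 38.3 to 41.2% in WT. The remaining positions of that bin, 1751 to 1791, held 4775 to 5263 RPM in rpa49△, 4569 to 5081 RPM in rpa34△ and 4614 to 5223 RPM in WT. The strains overlapped there. The boundary lies just after the falls at 1789 to 1791, which it places with the remaining positions, and no naming rule set it. With this split the higher sum of the bin lay in its last nucleotides.

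**Figure D5:**
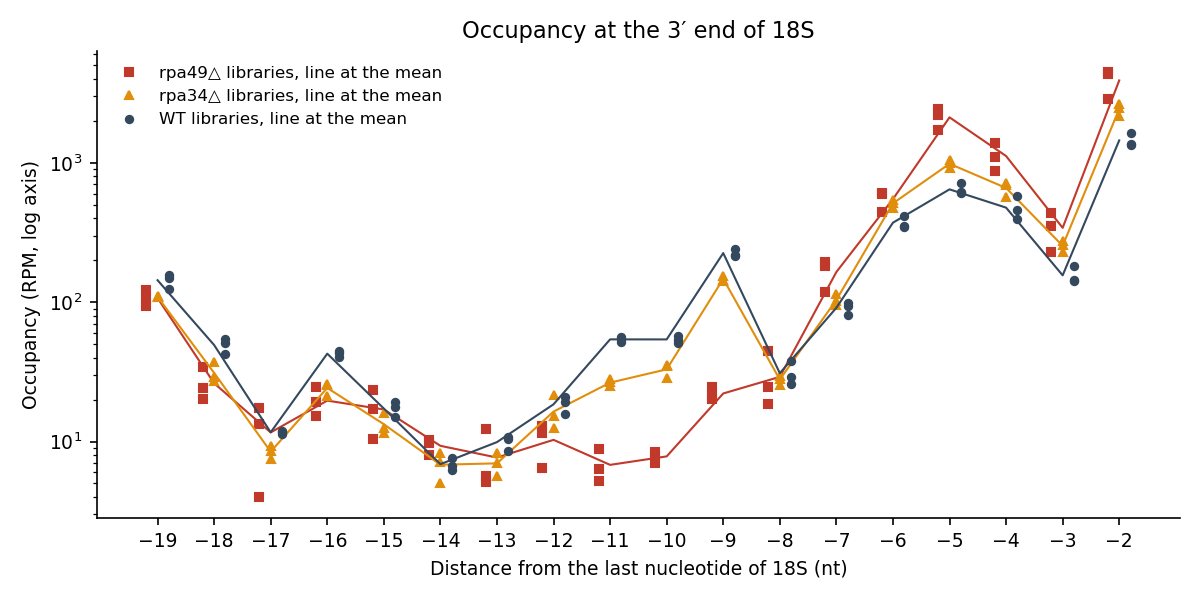
Occupancy (RPM, log axis) at the last nucleotides of 18S that held reads, against the distance in nt from its end; points are libraries and lines strain means, and the last 2 nt, at 0 in all libraries, are not drawn. At 1791, which is 9 nt before the end, rpa49△ averages 22.1 RPM and WT 225 RPM, and at 1798, which is 2 nt before the end, rpa49△ averages 3901 RPM and WT 1449 RPM.

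The highest positions held a larger share of the stretch in rpa49△. The 12 highest positions of a library held 6.53% ± 0.671 of the stretch in rpa49△, 5.29% ± 0.181 in rpa34△ and 4.88% ± 0.166 in WT (SD, n = 3), with no overlap (exact permutation p = 0.1 in each comparison). The adjusted permutation p was 0.125 for rpa49△ and 0.2 for rpa34△ against WT, and 0.143 between the deletions. In rpa49△ these positions included 1795 and 1798, which averaged 2120 and 3901 RPM there and 645 and 1449 RPM in WT. The share was not compared without the 3′ end of 18S. The Gini coefficient, which is 0 for even occupancy, was 0.414 ± 0.00528 in rpa49△, 0.397 ± 0.0146 in rpa34△ and 0.405 ± 0.00990 in WT. It overlapped between strains, with exact permutation p = 0.2 for rpa49△ and 0.5 for rpa34△ against WT.

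The bases at which RNA ends lay also differed. The shares by base include the 3′ end of 18S and were not compared without it. There the U at 1795 averaged 2120 RPM in rpa49△, 985 RPM in rpa34△ and 645 RPM in WT. The U at 1798 averaged 3901, 2435 and 1449 RPM in the same order. The stretch is 25.5% A, 19.4% C, 26.8% G and 28.2% U. Ends at C held 19.1% ± 0.631 of its occupancy in rpa49△, 17.7% ± 0.305 in rpa34△ and 17.0% ± 0.289 in WT, and ends at U 29.0% ± 0.237 in rpa49△, 27.9 to 28.1% in rpa34△ and 26.6% ± 0.342 in WT. Ends at G held 23.2% ± 0.713 in rpa49△, 23.0% ± 0.301 in rpa34△ and 25.2% ± 0.527 in WT. Ends at A held less in rpa49△, with 28.8% ± 0.549 in rpa49△, 31.2% ± 0.0155 in rpa34△ and 31.2% ± 0.402 in WT. Each difference named as non-overlapping here, which is C, U and G for both deletions and A for rpa49△, had exact permutation p = 0.1 against WT and did not pass after adjustment.

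The base just before the end also differed between the deletions and WT. The U at 1795 and that at 1798 both follow an A. Shares by the base before were not compared without them. Ends that follow a G held 30.4% ± 0.222 of occupancy in rpa49△, 32.1% ± 0.424 in rpa34△ and 34.8% ± 0.130 in WT. Ends that follow an A held 27.0% ± 1.08 in rpa49△, 26.4% ± 0.604 in rpa34△ and 23.5% ± 0.521 in WT. Neither deletion overlapped WT in these shares, and the deletions overlapped each other for ends after an A but not after a G. At single positions, 137 of the 305 after an A rose and 34 fell in rpa49△ against WT, and 101 rose and 19 fell in rpa34△ against WT. Of the 321 after a G, 90 rose and 87 fell in rpa49△, and 53 rose and 79 fell in rpa34△. In the rest of mature rRNA, 435 of 1109 positions after an A rose and 171 fell in rpa49△, and 423 rose and 67 fell in rpa34△. Of its 1139 positions after a G, 272 rose and 323 fell in rpa49△, and 205 rose and 264 fell in rpa34△. The difference between the stretch and the rest was not tested. With mature rRNA reads as the scale the stretch had 108 higher and 44 lower after an A and 59 higher and 104 lower after a G in rpa49△, and 78 and 26 after an A and 32 and 92 after a G in rpa34△. The rest of mature rRNA then had 311 higher and 220 lower of 1110 after an A in rpa49△, and 313 and 92 of 1111 in rpa34△. After a G it had 179 higher and 380 lower of 1139 in rpa49△, and 149 and 323 of 1139 in rpa34△.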

How the data were processed

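NET-seq reads of immunoprecipitated Pol I from 9 libraries were analysed. Per the submitters' processing notes reads were handled with STAR 2.7.1a, cutadapt 3.4 and bcl2fastq 2.20.00, in no stated order, besides R 4.0.2, bedtools 2.28.0 and SAMtools 1.6, on build R64. The 2 deposited tables hold RPM values per position, scaled by the authors so that positions 1 to 6739 of the gene sum to 1000000, as the values show. No source used here says whether reads sharing a molecular barcode were collapsed. Whole reads were recovered from the RPM steps, with 10 of 61722 values more than 0.01 read from a whole number.

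Each library was rescaled to 1000000 reads over all 6858 nt, or over mature rRNA. Positions 1301 to 2500 of the gene are nucleotides 601 to 1800 of 18S. Bins of 50 nt and positions averaging 10 RPM or more were tested across the gene with limma 3.58.1 (lmFit, eBayes with trend, R 4.3.3) on log2(RPM + 10), with Benjamini-Hochberg adjustment and a threshold of 0.05; log2 changes understate those of low positions. On the mature rRNA scale only mature features were tested. For measures with 1 value per library an exact permutation test, two-sided, was used. The fits were tested on simulated data. Python 3.11.15, numpy 2.4.6, pandas 2.3.3 and scipy 1.17.1 were used. The alternatives were another pseudocount, minimum, bin width, scale or variance model, a replicate block, edgeR 4.0.16 on the recovered reads, and leaving out each library. Named were, per comparison, up to 5 called bins and positions with the largest rise and fall, the 8 highest positions, the last bin and nucleotide 1798; nucleotides 1789, 1790 and 1792 were chosen after their values were seen. The stretch and these rules were chosen with earlier results of these data known. Intervals cover counting error only.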

Additional observations from a re-analysis of the deposited data

How the results depend on the processing

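All 58 calls at named positions kept their direction, and 51 held under every alternative; of 15 calls at named bins, 6 did. The number of bins called was 10 for rpa49△ against WT, 3 for rpa34△ against WT and 7 for rpa49△ against rpa34△. Bins of 25 nt gave 22 for rpa49△ against WT and 8 for rpa34△ against WT. Bins of 100 nt gave 4 for rpa49△ against WT and 3 for rpa49△ against rpa34△, with fewer features tested. For rpa34△ against WT the median position of a bin gave 5, and eBayes without trend gave 1. Leaving out 1 library gave 8 to 10, 1 to 3 and 5 to 10 bins in the 3 comparisons. For positions it gave 503 to 644, 266 to 425 and 189 to 338, the lowest values of the last 2 without rpa34△ replicate 1, and 204 without rpa34△ replicate 2 for rpa49△ against rpa34△. Replicate numbers did not pair the libraries: same-numbered deviations correlated between -0.285 and 0.253. The replicate block gave 8, 1 and 7 bins and 598, 351 and 345 positions. edgeR gave 11, 3 and 6 bins and 640, 423 and 332 positions. Signs turned for rpa34△ minus WT in the share of the gene on mature rRNA reads (-0.373 points) and in the mean position without the last 50 nt (-0.204 nt). They also turned for the Gini coefficient of rpa49△ minus WT, to -0.00468 without the 12 highest positions and -0.00485 without the last 50 nt. The share of ends at A in rpa34△ minus WT ran between -0.244 and 0.157 points when 1 library was left out, and that at G in rpa49△ minus rpa34△ between -0.257 and 0.455, negative without rpa49△ replicate 1 (-0.257) or rpa34△ replicate 3 (-0.0161). The causes were not tested. At nucleotide 1199 the rpa49△ libraries held 22 to 38 reads, which limits the precision of its fold.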
